A study of Mus musculus with 24 samples.

Results

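The comparison of 3 h with 1 h after light onset asks which transcripts of the mouse retinal pigment epithelium (RPE) had decayed, and which had risen, once the first hour of light had passed. It takes 6 of the 24 libraries of a time series, 3 from mice sampled at 3 h and 3 from mice sampled at 1 h, and covers every gene of the deposited count table. All mice in both groups were wild type, of the strain 129S1/SvlmJ and with leucine at the 450 site of Rpe65, were fed a standard diet, and lived in 12-h cyclic light that began at 7 am. Each library comes from the RPE of 1 mouse, per the labels, and no genetic change or drug separates the groups. The remaining 18 libraries come from 6 other times, and the 0 h and 5 h libraries are used here to show where a gene stood before and after the 2 times compared.

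The RPE is a pigmented epithelium that lies against the photoreceptors, regenerates their visual chromophore and engulfs the outer segment tips that rods shed soon after light onset. Cells that receive a new signal commonly make short bursts of transcripts for feedback inhibitors, such as Cish downstream of STAT5 or Spry4 downstream of ERK. Glucocorticoid hormone acts through its nuclear receptor to induce a recurring set of direct targets, among them Per1, Fkbp5, Tsc22d3, Sgk1 and Klf9, and Per1 is in addition a repressor of the circadian clock.

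Per library, 15989448 to 17492470 reads were counted in genes over the 6 libraries, with 16803022 to 17492470 at 3 h and 15989448 to 16744877 at 1 h. Within each time, the 3 libraries differed from each other by 8.71 to 18.4 chi-square units per degree of freedom, so none is a second deposit of another. Rpe65, the visual cycle isomerase that marks the RPE, stood at 3994, 3664 and 3716 CPM at 3 h, against 4318, 4254 and 4993 CPM at 1 h, where CPM is the count scaled to a common library size. Transcripts of neighbouring cells were present as well. The summed level of 22 rod markers was 1939, 2919 and 2993 CPM at 3 h (lowest, median and highest mouse), against 1579, 2435 and 2857 CPM at 1 h. In such a bulk tissue, fewer cells of a type and less RNA per cell cannot be told apart. Over the 10 lists of cell type markers 0 members were called, and Onecut1, an inner retina marker, was the only one at 0 in all 6 libraries. Among the other time points, mouse 3 of 6 h and mouse 3 of 15 h stand apart from the rest, and the spread was estimated from the other 22 libraries. With all 24 libraries the same comparison called 2 genes lower, Cish and Per1, and 0 higher.

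Of 18388 genes tested, 48 (0.261%) were called at an adjusted p under 0.05 (edgeR quasi-likelihood test, Benjamini-Hochberg adjustment over all genes tested), 43 of them lower at 3 h than at 1 h (0.234%) and 5 higher (0.0272%). The majority of falls depended on the settings: without a filter on low counts 189 genes were lower and 251 higher (43% lower, against 89.6% here), DESeq2 gave 67.6% lower, and 61.7% were lower without mouse 2 of 3 h. At an unadjusted p under 0.05 the split was near even, with 625 genes lower and 649 higher, and the median log2 fold change of all genes was 0.00183. The falls were moderate, with a median level at 1 h that was 1.5 times that at 3 h a range from 1.27 times to 3.24 times (Cish), and 1 gene beyond it, C1rb, whose 19.2 times is a fitted value from 1 to 5 raw counts in each 3 h library. In all 43 the 3 mice of 3 h lay below the 3 mice of 1 h, an arrangement found in 6.35% of all genes tested, and in all 5 they lay above, as did 5.85% of all genes. The calls were made on these same values, so this separation, here and for single genes below, is not further support. Of the 48 called genes, 46 are annotated as protein coding.

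The number of calls changed when single libraries were left out. Leaving out mice 1, 2 and 3 of 3 h in turn gave 15, 29 and 9 genes lower and 0, 18 and 2 higher. Leaving out the 1 h mice in the same order gave 34, 19 and 7 lower and 2, 2 and 0 higher. Klf9, Cish, Arhgef3, Abr and Per1 were called whichever of the 6 libraries was left out, and the call of each of the other 43 genes ended in at least 1 of those fits. In these fits, as in the main one, the spread of a gene is estimated over all times together. A group left with 2 libraries also has a less exact mean, and why calls ended in these fits was not tested. All 48 kept their direction in all 17 alternative fits. Those fits reuse the libraries on which the genes were called, so the kept signs are not separate support.

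**Figure D1:**
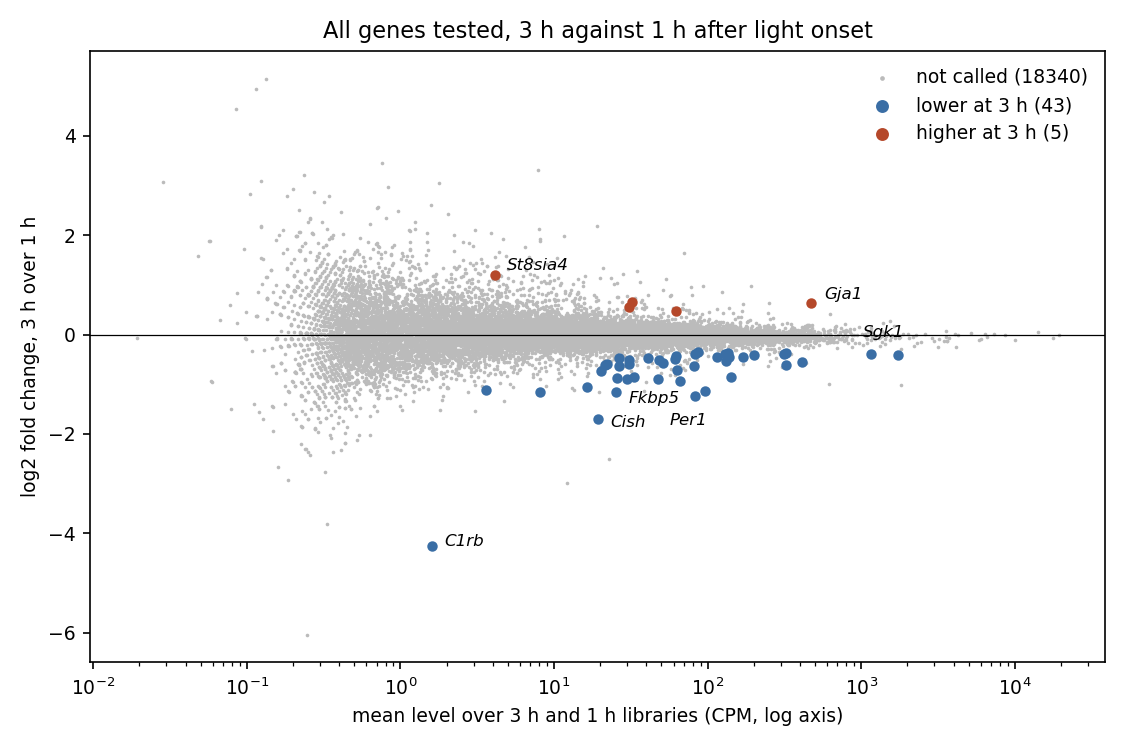
Log2 fold change of 3 h over 1 h for the 18388 genes tested (vertical axis) against their mean level over the 6 libraries (CPM, log axis). Grey points were not called, and the 43 blue points (lower at 3 h) outnumber the 5 red points (higher at 3 h); among the called genes C1rb lies farthest below zero.

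Promoters are shown for Cish, Klf9 and Per1, which are among the 5 genes called whichever library was left out and hold a motif that was searched for. RefSeq (GRCm38.p6) gives a window from 250 bases before to 50 bases after each start site of its own. For Cish and Per1 these sites lie inside the gene bounds of the deposited table, downstream of the gene starts printed for them here. Motif letters are in capitals, and positions are counted from the start site, negative before it.
Cish, chr9:107296409-107296708 (+): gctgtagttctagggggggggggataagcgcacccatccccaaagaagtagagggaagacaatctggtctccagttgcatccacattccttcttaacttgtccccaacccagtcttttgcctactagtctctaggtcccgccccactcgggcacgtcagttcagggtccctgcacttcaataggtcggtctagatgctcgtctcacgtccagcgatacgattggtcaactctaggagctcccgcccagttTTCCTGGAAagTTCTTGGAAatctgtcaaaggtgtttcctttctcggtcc
Klf9, chr19:23140976-23141275 (+): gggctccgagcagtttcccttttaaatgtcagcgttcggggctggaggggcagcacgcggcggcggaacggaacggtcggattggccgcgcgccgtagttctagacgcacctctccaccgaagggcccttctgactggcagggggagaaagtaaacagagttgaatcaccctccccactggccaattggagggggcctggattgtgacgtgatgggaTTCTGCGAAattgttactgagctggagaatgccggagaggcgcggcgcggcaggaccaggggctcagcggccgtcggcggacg
Per1, chr11:69098699-69098998 (+): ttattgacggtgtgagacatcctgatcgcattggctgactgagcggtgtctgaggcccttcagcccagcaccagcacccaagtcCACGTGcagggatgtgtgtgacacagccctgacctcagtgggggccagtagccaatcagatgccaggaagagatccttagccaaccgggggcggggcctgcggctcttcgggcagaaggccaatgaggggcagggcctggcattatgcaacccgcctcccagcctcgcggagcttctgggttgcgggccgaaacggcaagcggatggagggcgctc
The capitals in Cish and Klf9 mark TTCNNNGAA, the form bound by STAT factors, at 1 and 12 in Cish and at -33 in Klf9, and in Per1 they mark CACGTG, the E-box that the clock activators bind, at -166. Per1 has a second window, not shown, which holds no CACGTG and has TTCNNNGAA at -210, so Per1 is counted under both motifs.

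Windows were found by symbol for 27 of the 43 genes that fell, 45 windows in all since some genes have several starts, and for 5 of the 5 that rose. TTCNNNGAA, which reads the same on both strands as a pattern, stood in 8 of the 27 genes (29.6%), against 8.29% of the 12703 tested genes with a window. Counted per window it stood in 8 of 45 (17.8%), against 6.89% of windows of tested genes and 8.30% of all 32851 windows. CACGTG stood in 4 of the 27 genes (14.8%), against 10.97% of tested genes, and per window in 8.89%, against 9.21% of windows of tested genes and 7.15% of all windows. The full cyclic AMP element TGACGTCA and the D-box TTATGTAA stood in 0 of the 45 windows. Their shares were 2.75% and 0.637% of windows of tested genes, and 1.79% and 0.938% of all windows. At such low shares, 0 of 45 windows says little. None of the motifs was seen in the 5 windows of Abr or the 4 of Arhgef3, and of the genes that rose only Lgi1 held TTCNNNGAA, at -79. These are matches of letters in a short window and carry no test.

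Glucocorticoid targets were the list with the most called genes. Of its 25 members, 9 fell and 0 rose, 21 had a negative log2 fold change, and their median was -0.47, against 0.00183 for all genes tested. In 13 of the 25 the 3 mice of 3 h lay below the 3 mice of 1 h, against 6.35% of all genes. Some of these members were known to move in these data when the list was drawn up, so the list is not independent evidence of its own direction. The 9 called members were Klf9, Per1, Fkbp5, Ddit4, Tsc22d3, Sgk1, Cebpd, Cdkn1a and Sult1a1. The count of 9 became 3, 7 and 3 on leaving out mice 1, 2 and 3 of 3 h in turn, and 7, 5 and 3 on leaving out the 1 h mice likewise.

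Klf9 (ENSMUSG00000033863, chromosome 19, 23141226 to 23166911), a zinc finger repressor induced by glucocorticoid and thyroid hormone, stood at 45.8, 50.2 and 48.2 CPM in the 3 mice taken at 3 h, against 76.7, 82.6 and 77.9 CPM in the 3 mice taken at 1 h. Every 3 h mouse lay below every 1 h mouse, and the 3 h levels were close to those at 0 h, 53.9, 56.5 and 49.6 CPM. Its log2 fold change was -0.72 ± 0.09 (SE), adjusted p = 0.000206, a value shared with Cish as the smallest of the comparison. At 5 h the level was 62.2, 54.4 and 65.9 CPM. Fkbp5 (ENSMUSG00000024222, chromosome 17, 28399094 to 28517527), a co-chaperone that dampens the glucocorticoid receptor, had 13.7, 17.6 and 15.9 CPM at 3 h, against 26.7, 37.8 and 40.9 CPM at 1 h. Its 3 h mice all lay below its 1 h mice (log2 fold change -1.16 ± 0.18 (SE), adjusted p = 0.0113). Tsc22d3 (ENSMUSG00000031431, chromosome X, 140539528 to 140600659), which encodes the leucine zipper protein GILZ, a mediator of anti-inflammatory glucocorticoid action, had 43.1, 48.2 and 44.7 CPM at 3 h, against 81.1, 97 and 81.6 CPM at 1 h. The groups did not overlap, and the 0 h mice, at 40.2, 42.6 and 50.8 CPM, overlapped those of 3 h (log2 fold change -0.93 ± 0.15 (SE), adjusted p = 0.0133).

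Sgk1 (ENSMUSG00000019970, chromosome 10, 21882184 to 21999903), the serum and glucocorticoid regulated kinase, which promotes sodium transport in epithelia, was the most abundant of the called targets. It stood at 998, 983 and 1018 CPM in the 3 mice taken at 3 h, against 1264, 1269.8 and 1403 CPM in the 3 mice taken at 1 h (log2 fold change -0.39 ± 0.08 (SE), adjusted p = 0.0193). The groups did not overlap, and its fold change was the smallest of the 9. Cebpd, a bZIP factor of acute responses, had 31.5, 35.9 and 32.6 CPM at 3 h, against 73.7, 63.7 and 47.6 CPM at 1 h (log2 fold change -0.89 ± 0.16 (SE), adjusted p = 0.0193). Ddit4, an inhibitor of mTORC1 that also belongs to the hypoxia list, had 73.4, 69.2 and 49 CPM at 3 h, against 89.5, 97.8 and 112 CPM at 1 h (log2 fold change -0.64 ± 0.11 (SE), adjusted p = 0.0113). Mouse 3 of 3 h was the lowest of the 6 for Ddit4 and mouse 3 of 1 h the highest. Cdkn1a, the cell cycle inhibitor p21, had 13.6, 17.1 and 14.9 CPM at 3 h, against 24.3, 27.3 and 23.8 CPM at 1 h (log2 fold change -0.73 ± 0.14 (SE), adjusted p = 0.0193). Sult1a1, a sulfotransferase, had 42, 37 and 40 CPM at 3 h, against 55.5, 53.9 and 59.4 CPM at 1 h (log2 fold change -0.50 ± 0.10 (SE), adjusted p = 0.0227). Its call held in 8 of the 17 alternatives and in 0 of the 6 that left out a library, and ended with the light phase libraries alone. Cebpd, Ddit4, Cdkn1a and Sult1a1 were all separated between the times.

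The 16 members that were not called include well known targets. Pdk4, a kinase that restrains glucose oxidation, averaged 11.4 ± 2.32 CPM at 3 h and 16.96 ± 1.32 CPM at 1 h (SD, n = 3 each; log2 fold change -0.57, adjusted p = 0.269). Metallothionein Mt2 averaged 3.54 ± 1.08 CPM at 3 h and 7.35 ± 0.308 CPM at 1 h (log2 fold change -1.05, adjusted p = 0.755). The 4 members with positive values were Fam107a (0.51, adjusted p = 0.41), Dusp1 (0.65, adjusted p = 0.727), Lcn2 (0.24, adjusted p = 0.987) and the receptor gene Nr3c1 (0.20, adjusted p = 0.614). Dusp1, an ERK phosphatase and a classic target, stood at 30.1, 61.9 and 42.2 CPM at 3 h, against 25.2, 35.6 and 24.6 CPM at 1 h, with wide spread and overlapping groups.

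**Figure D2:**
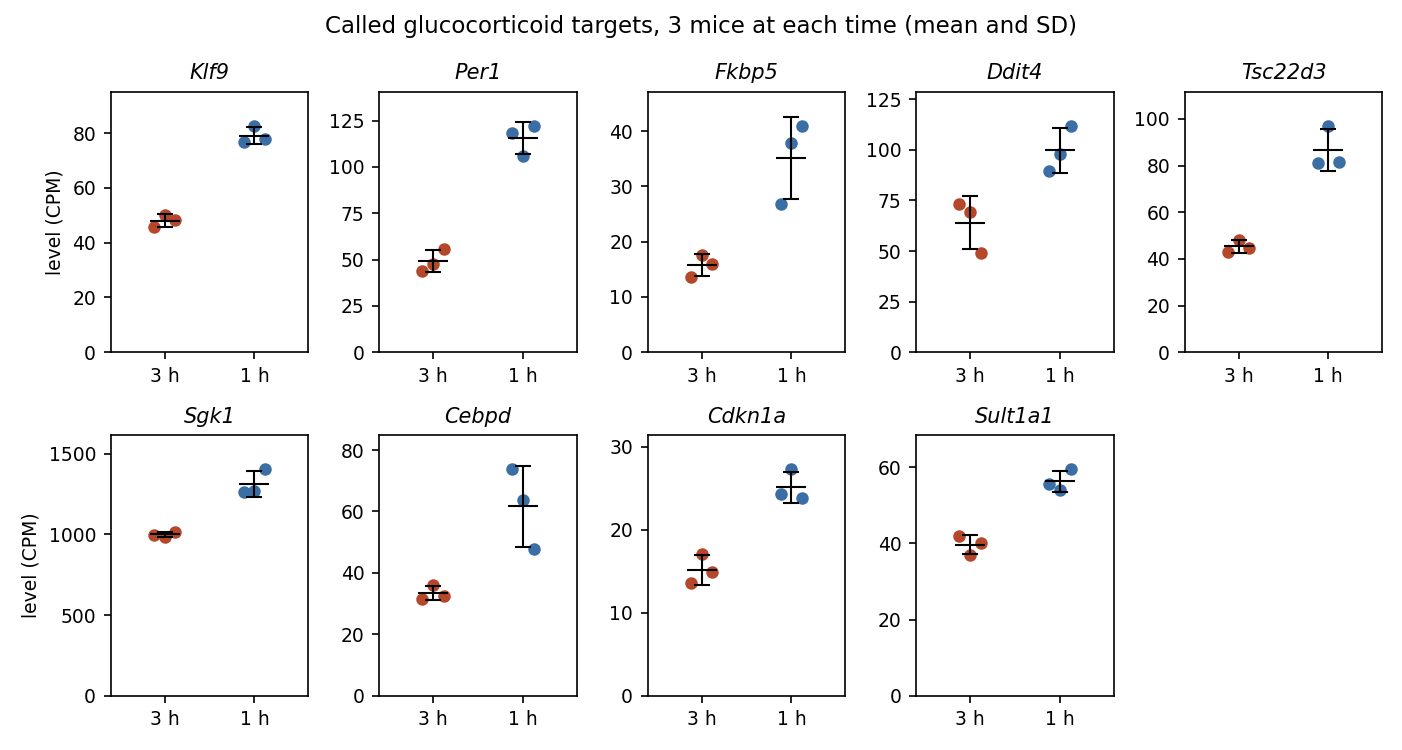
Level in CPM of the glucocorticoid targets called lower, with 1 point per mouse, 3 h at left of 1 h, and the mean and SD (n = 3 each). The 3 h mice lie below the 1 h mice in every panel; Klf9, for example, averaged 48.1 ± 2.22 CPM at 3 h and 79.1 ± 3.15 CPM at 1 h.

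Feedback inhibitors of cytokine and growth factor signalling were represented by 1 gene each. Cish (ENSMUSG00000032578, chromosome 9, 107296026 to 107302784), a suppressor of cytokine signalling induced by STAT5, stood at 8.33, 8.76 and 10.2 CPM in the 3 mice taken at 3 h, against 29.4, 28.3 and 31 CPM in the 3 mice taken at 1 h. All 3 h mice lay below all 1 h mice, and the 0 h mice, at 6.08, 11.8 and 9.03 CPM, overlapped those of 3 h (log2 fold change -1.70 ± 0.19 (SE), adjusted p = 0.000206). Some 11.5% of its exonic bases are shared with predicted genes, and the libraries do not mark strand, so reads cannot be assigned between them. Of the 23 members of the STAT5 and cytokine feedback list, Cish alone fell, none rose, and the median log2 fold change was -0.03. Spry4, an inhibitor of ERK signalling, had 49.9, 54 and 54.6 CPM at 3 h, against 74.5, 65.1 and 75.5 CPM at 1 h (log2 fold change -0.44 ± 0.09 (SE), adjusted p = 0.0396), without overlap. Its call held in 7 of the 17 alternatives, and ended with the rod marker covariate (adjusted p = 0.0612), limma-voom (0.0696), the light phase libraries alone (0.0742), all 24 libraries, the 6 libraries alone, or without any one of the 6 mice except mouse 2 of 1 h. Its list of ETS factors and ERK feedback held 24 tested members, of which 1 fell and 0 rose.

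Of the 24 clock genes 2 fell and 0 rose, against 0.234% and 0.0272% of all genes tested, with a median log2 fold change of 0.02. In 6 of the 24 the 3 h mice all lay above the 1 h mice, against 5.85% of all genes. In 2 of the 24 they all lay below, against 6.35% of all genes. Ciart, Nr1d1 and Dbp were among the 6. Per1 (ENSMUSG00000020893, chromosome 11, 69095217 to 69109960), a light and hormone responsive repressor of the clock, had 44.1, 47.6 and 55.5 CPM at 3 h, against 119, 106 and 122 CPM at 1 h, without overlap (log2 fold change -1.24 ± 0.16 (SE), adjusted p = 0.00406). Its 0 h mice stood at 33.3, 28.9 and 33.8 CPM, below all 3 h mice, and the difference of 3 h from 0 h was not called (log2 fold change 0.62, adjusted p = 0.16). Per2, the paralog of Per1, stood at 46.1, 49.6 and 53 CPM at 3 h, against 49.8, 54.3 and 54.5 CPM at 1 h, with overlap (log2 fold change -0.09 ± 0.11, adjusted p = 0.944). Its level at 0 h was 23, 31.7 and 32.1 CPM, so its 1 h and 3 h levels were both above 0 h (adjusted p = 0.000343 and 0.000964). Arntl, the clock activator, had 19.2, 17.9 and 22.3 CPM at 3 h, against 19.1, 23.2 and 21.8 CPM at 1 h (log2 fold change -0.11, adjusted p = 0.948). Positive but uncalled values were found for Ciart (0.75, adjusted p = 0.602), Nr1d1 (0.48, adjusted p = 0.35) and Dbp (0.33, adjusted p = 0.818), which the clock activator drives.

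Several other genes that fell encode regulators of the cytoskeleton, of kinase cascades or of transcription. Arhgef3 (ENSMUSG00000021895, chromosome 14, 27114899 to 27403911), a guanine nucleotide exchange factor for small GTPases, had 104, 109.9 and 89.8 CPM at 3 h, against 175, 169 and 203 CPM at 1 h (log2 fold change -0.85 ± 0.10 (SE), adjusted p = 0.000242). Abr (ENSMUSG00000017631, chromosome 11, 76416734 to 76622314), a regulator of small GTPases that lies outside the naming rule and was chosen after its values were seen, had 259, 253 and 249 CPM at 3 h, against 367, 381 and 423 CPM at 1 h (log2 fold change -0.62 ± 0.09 (SE), adjusted p = 0.00258). Neither gene overlapped between the times, and the 1 h mice of Abr were 1.54 times the 3 h mice on average. Map3k6, a stress kinase of the MAPK cascade, had 5.12, 5.95 and 4.06 CPM at 3 h, against 11.7, 9.26 and 12.7 CPM at 1 h (log2 fold change -1.15 ± 0.20 (SE), adjusted p = 0.0113). Nuak2, an AMPK-related kinase, had 63.4, 60.9 and 55.7 CPM at 3 h, against 103, 119 and 174 CPM at 1 h (log2 fold change -1.13 ± 0.21 (SE), adjusted p = 0.034). The call of Nuak2 held in 7 of the 17 alternatives and in 1 of the 6 that left out a library. It ended with the replicate block (adjusted p = 0.0715), the rod marker covariate, the light phase libraries alone, the 6 libraries alone and all 24 libraries. In Nuak2 mouse 3 of 1 h was above the other 1 h mice, and no 3 h mouse of either kinase gene reached a 1 h mouse. Usp2, a deubiquitinase with daily rhythm, had 17.8, 23.1 and 21.5 CPM at 3 h, against 33.7, 47 and 35.7 CPM at 1 h (log2 fold change -0.90 ± 0.18 (SE), adjusted p = 0.0408). Hr, a nuclear receptor corepressor, had 16.7, 18.5 and 19.6 CPM at 3 h, against 28.3, 39.3 and 32.6 CPM at 1 h (log2 fold change -0.87 ± 0.15 (SE), adjusted p = 0.0113). Dok7, an activator of the muscle receptor kinase MuSK, had 8.61, 12.1 and 11 CPM at 3 h, against 20.8, 19.8 and 25.6 CPM at 1 h (log2 fold change -1.06 ± 0.20 (SE), adjusted p = 0.0209). The summed level of 13 skeletal muscle markers was 445, 570 and 2246 CPM at 3 h (lowest, median and highest), against 865, 1310 and 2471 CPM at 1 h, and their part in the fall of Dok7 was not tested. For Usp2, Hr and Dok7 the times did not overlap. Red blood cell markers had negative values in 6 of 6, with a summed level of 805, 818 and 912 CPM at 3 h against 909, 939 and 1325 CPM at 1 h, and their part in the falls was not tested.

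Amino acid and lipid transporter genes were also among those that fell. Slc7a3, a cationic amino acid transporter, stood at the low level of 1.63, 2.8 and 2.46 CPM at 3 h, against 4.93, 4.45 and 5.52 CPM at 1 h (log2 fold change -1.11 ± 0.22 (SE), adjusted p = 0.0194). Slc7a5, a large neutral amino acid transporter, had 275, 265 and 278 CPM at 3 h, against 332, 348 and 399 CPM at 1 h (log2 fold change -0.40 ± 0.08 (SE), adjusted p = 0.024). Mfsd2a, which carries lysophospholipids with docosahexaenoic acid, had 47.5, 57.7 and 48.1 CPM at 3 h, against 66.8, 81.6 and 67.4 CPM at 1 h (log2 fold change -0.49 ± 0.10 (SE), adjusted p = 0.024). Groups were separated for all 3. Chka, a choline kinase, and Adipor2, an adiponectin receptor, fell by 0.39 and 0.37 on the log2 scale (adjusted p = 0.0269 and 0.0269). Slc7a5, Mfsd2a, Chka and Adipor2 lie outside the naming rule and were chosen after their values were seen.

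Also outside the naming rule, and listed only to account for every call, the other genes that fell were Camsap3, Arrdc2, Fzd8, Gm28875, 1700018L02Rik, Endou, Tmem229b, Zfp579, Paqr9, St6galnac2, Prodh, 6430571L13Rik, Scarf1, Scube3, Thbs1, Syne3, Adcy1, Apold1 and C1rb. Of these, Scube3 (adjusted p = 0.0631 with the replicate block), Thbs1 (0.0715), Syne3 (0.0715) and Adcy1 (0.0623) lost their call in that fit. Tmem229b, which encodes a membrane protein, had 349.9, 337 and 309.8 CPM at 3 h, against 429, 455 and 574 CPM at 1 h (log2 fold change -0.55 ± 0.10 (SE), adjusted p = 0.0133). Endou, an endoribonuclease gene, had 37.8, 33.3 and 31.9 CPM at 3 h, against 45.2, 46 and 51.3 CPM at 1 h (log2 fold change -0.47 ± 0.08 (SE), adjusted p = 0.0113). Both were separated between the times. Fzd8, a Wnt receptor gene, had 112, 113 and 96.5 CPM at 3 h, against 151, 136 and 177 CPM at 1 h (log2 fold change -0.53 ± 0.09 (SE), adjusted p = 0.0113). Camsap3, which caps microtubule minus ends, had 117, 115 and 123 CPM at 3 h, against 148, 152 and 161 CPM at 1 h (log2 fold change -0.37 ± 0.06 (SE), adjusted p = 0.00935). Arrdc2, an arrestin domain gene, had 20.7, 21.2 and 20.7 CPM at 3 h, against 30.3, 35.6 and 30.7 CPM at 1 h (log2 fold change -0.63 ± 0.11 (SE), adjusted p = 0.0113). In these as well each 3 h mouse was below each 1 h mouse. Log2 fold changes of the other 10 genes of this group that are only named ran from -0.86 to -0.34.

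Where the falling genes stood at 0 h and 5 h separates several courses. The comparison of 5 h with 0 h shares no library with that of 3 h with 1 h. Both come from 1 fit and use the same estimate of spread for each gene, so their calls are not fully independent. At 5 h against 0 h, 1.64% of all genes were called higher and 1.26% lower. Of the 43 genes that fell between 1 h and 3 h, 11 were called higher at 5 h than at 0 h and 3 lower. The 11 were Sgk1, Tmem229b, Abr, Slc7a5, Nuak2, Per1, Mfsd2a, Spry4, Endou, Gm28875 and Cish. Per1 illustrates the course, at 86.1, 104 and 114 CPM at 5 h against 33.3, 28.9 and 33.8 CPM at 0 h (log2 fold change 1.66 ± 0.17, adjusted p = 2.77e-05). Cish had 19.4, 21.1 and 21.2 CPM at 5 h against 6.08, 11.8 and 9.03 CPM at 0 h (log2 fold change 1.20 ± 0.20, adjusted p = 0.00117). The levels of both were thus high at 1 h, low at 3 h and high again at 5 h. Sgk1 reached 1374, 1518 and 1415 CPM at 5 h against 981, 1005 and 1018 CPM at 0 h (adjusted p = 0.000185). Spry4 had 79.6, 79.1 and 82.3 CPM at 5 h against 52.7, 55.4 and 62.2 CPM at 0 h (adjusted p = 0.00278), and all its 5 h mice were above all its 1 h mice as well. Abr had 350.5, 347 and 359 CPM at 5 h against 252, 260.3 and 278 CPM at 0 h (adjusted p = 0.0108). Slc7a5 had 440.1, 368 and 371 CPM at 5 h against 297, 263 and 271 CPM at 0 h (adjusted p = 0.000569). In these 6 genes, taken from the 11 called higher at 5 h, no 5 h mouse was within the range of the 0 h mice. This separation comes from the values behind the call, and its share over all genes was not counted.

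Comparisons that share libraries with that of 3 h and 1 h give the same levels from other sides, and their calls are not independent of it. Between 1 h and 0 h 0.337% of genes were called, between 3 h and 0 h 0.299% and between 5 h and 3 h 2.62%. Klf9 was higher at 1 h than at 0 h (log2 fold change 0.57, adjusted p = 0.0018), as were Tsc22d3 (0.96, adjusted p = 0.0104) and Cdkn1a (0.85, adjusted p = 0.00534). Fkbp5 was not called there (0.64, adjusted p = 0.123), and at 5 h it stood at 13.7, 17.6 and 19.8 CPM, overlapping the 3 h mice. Cdkn1a likewise stayed low at 5 h, at 11.7, 11.6 and 13.8 CPM.

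Thbs1, Adcy1 and Apold1 took another course, since they were called lower at 5 h than at 0 h. Thbs1 (ENSMUSG00000040152, chromosome 2, 118111876 to 118127133), a matrix glycoprotein that restrains vessel growth, had 1454, 1585 and 1389 CPM at 3 h, against 2008, 1663 and 2259 CPM at 1 h (log2 fold change -0.42 ± 0.09 (SE), adjusted p = 0.0416). It had stood at 2982, 2893 and 2464 CPM at 0 h and stood at 1404, 1416 and 1416 CPM at 5 h, so the 1 h mice lay between the 0 h and 3 h mice and the 5 h mice near those of 3 h. Adcy1, a calcium-stimulated adenylyl cyclase, had 104, 114 and 120.2 CPM at 3 h, against 147, 141 and 154 CPM at 1 h, after 176, 174 and 167 CPM at 0 h (log2 fold change -0.38 ± 0.08 (SE), adjusted p = 0.0493). The call of Adcy1 at 3 h against 1 h held in 3 of the 17 alternatives and in 0 of the 6 that left out a library, and ended with both other scalings (adjusted p = 0.0553 and 0.0667), a minimum count of 50 (0.0588) and limma-voom (0.0572). That of Thbs1 held in 6 of 17. Apold1, an endothelial immediate response gene, had 17.3, 18 and 17.9 CPM at 3 h, against 24, 25.7 and 30.2 CPM at 1 h, and its 0 h and 1 h mice overlapped (log2 fold change -0.59 ± 0.11 (SE), adjusted p = 0.017). The summed level of 16 choroid endothelium markers was 906, 1235 and 1246 CPM at 3 h (lowest, median and highest), against 893, 1070 and 1313 CPM at 1 h, and its part in the fall of Apold1 was not tested.

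**Figure D3:**
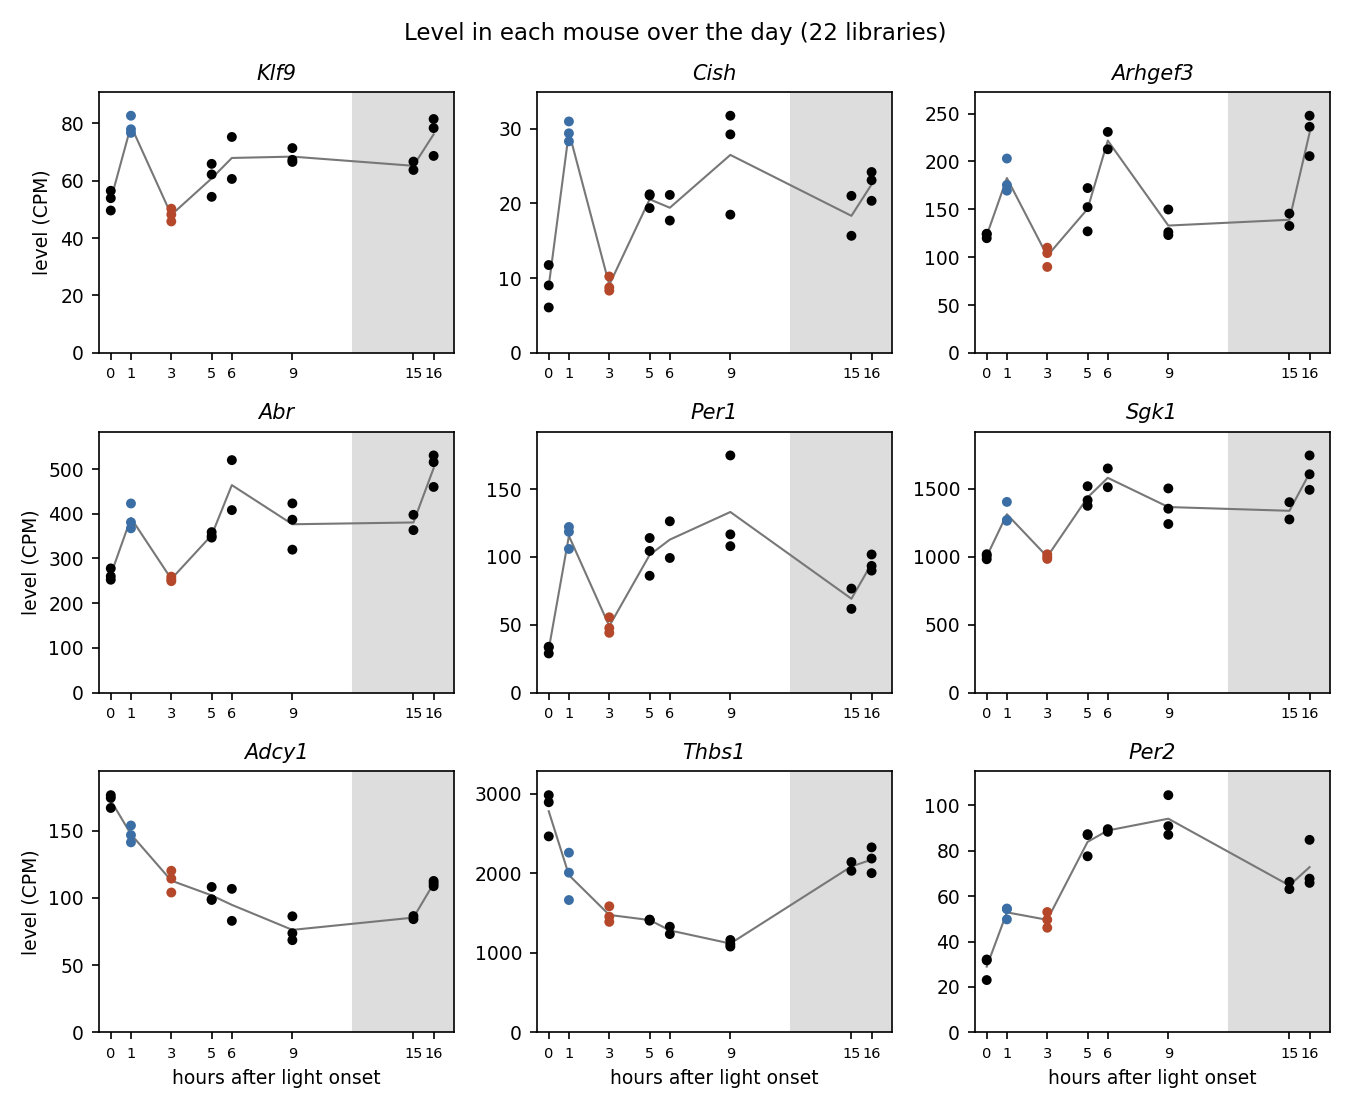
Level in CPM of 9 genes in each mouse of the 22 libraries against hours after light onset, with the line through the mean of each time and the dark phase in grey (3 h in red, 1 h in blue). Cish, Per1, Abr and Sgk1 are high at 1 h, low at 3 h and high at 5 h, Thbs1 and Adcy1 decline from 0 h to 3 h, and Per2 has similar levels at 1 h and 3 h.

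Rises were few. Gja1 (ENSMUSG00000050953, chromosome 10, 56377330 to 56402513), which encodes the gap junction protein connexin 43, had 606, 470.2 and 651 CPM at 3 h, against 357, 406 and 353 CPM at 1 h (log2 fold change 0.63 ± 0.13 (SE), adjusted p = 0.0438), and its call ended with the replicate block (adjusted p = 0.0715) and in the fit that adds rod markers as a covariate (adjusted p = 0.0714). The 0 h mice, at 417, 394 and 351 CPM, overlapped those of 1 h. Rnd3, an atypical small GTPase, had 38.1, 37.1 and 34.2 CPM at 3 h, against 27.4, 23.4 and 23.3 CPM at 1 h (log2 fold change 0.56 ± 0.11 (SE), adjusted p = 0.0193). Lgi1, a secreted leucine-rich protein, had 41.5, 33 and 43.2 CPM at 3 h, against 26.3, 22.2 and 26.7 CPM at 1 h (log2 fold change 0.65 ± 0.13 (SE), adjusted p = 0.024). In both genes the groups were separate. St8sia4, a polysialic acid synthase, had 4.9, 6.12 and 6.23 CPM at 3 h, against 3.00, 1.82 and 2.63 CPM at 1 h (log2 fold change 1.21 ± 0.25 (SE), adjusted p = 0.0269). Shisa2, an inhibitor of Wnt and FGF receptor maturation, had 83.7, 61.2 and 71.9 CPM at 3 h, against 54.4, 51.6 and 49.7 CPM at 1 h (log2 fold change 0.48 ± 0.10 (SE), adjusted p = 0.0379). In each the 3 h mice lay above the 1 h mice, and for Rnd3, Lgi1 and St8sia4 the 0 h levels were nearer to those of 3 h: St8sia4 had 6.38, 5.41 and 6.31 CPM at 0 h. Of the 17 alternatives, the call held in 11 for Rnd3, 9 for Lgi1, 9 for St8sia4, 8 for Shisa2 and 8 for Gja1. Of the 6 fits that left out a library, it held in 2 for Rnd3 and in 1 for each of the others. The calls of Lgi1 and Shisa2 also ended with limma-voom, and those of St8sia4 and Shisa2 with the light phase libraries alone. Of the 5 genes, 0 were called at 5 h against 0 h. Rod and lens lists leaned the same way: 19 of 22 rod markers and 12 of 13 lens and ciliary body markers had positive values, none called. The summed level of the 13 was 140, 147 and 371 CPM at 3 h (lowest, median and highest), against 53.4, 72.7 and 277 CPM at 1 h, and its part in the rises was not tested.

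**Figure D4:**
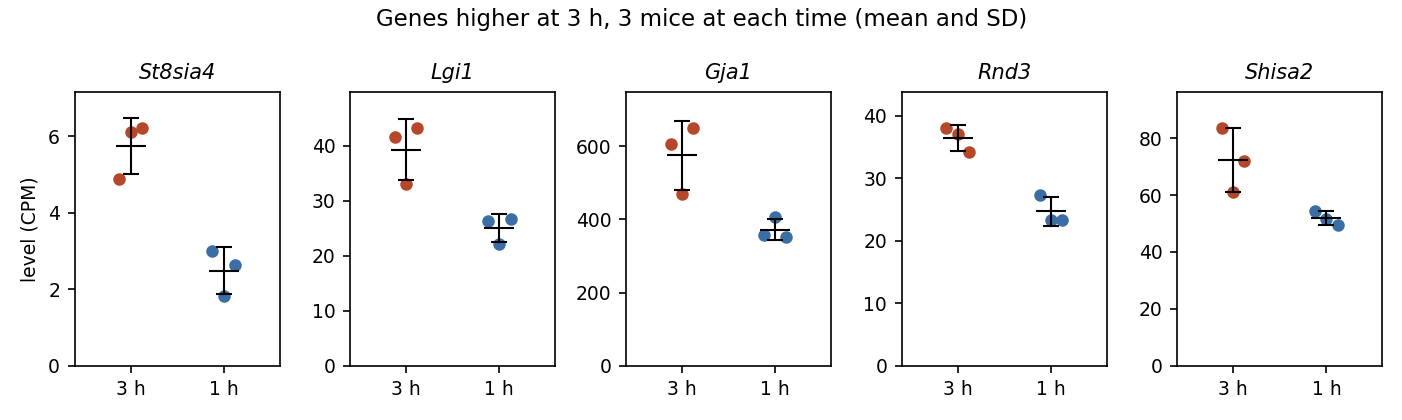
Level in CPM of the 5 genes called higher at 3 h, 1 point per mouse, 3 h at left of 1 h, with the mean and SD (n = 3 each). No panel has an overlap between the times, and Gja1 is the most abundant of the 5, at 470.2 to 651 CPM at 3 h.

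Immediate early genes, which respond within minutes to many stimuli, had no called member in either direction. Of 35 members 0 were called, 24 had positive values, and the median log2 fold change was 0.14. Fos stood at 7.2, 12.4 and 8.17 CPM at 3 h, against 6.55, 7.27 and 2.57 CPM at 1 h (log2 fold change 0.75 ± 0.34, adjusted p = 0.687). Egr1 had 27.7, 39.9 and 44.9 CPM at 3 h, against 21, 25.7 and 19.4 CPM at 1 h (0.77 ± 0.51, adjusted p = 0.86), and Nr4a1 24.5, 44.7 and 33 CPM at 3 h, against 23.9, 20.3 and 20.8 CPM at 1 h (0.65 ± 0.32, adjusted p = 0.761). Egr1 and Nr4a1 were above their 1 h mice in each 3 h mouse, and Fos overlapped.

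The study set out to follow autophagy and lysosomal genes, and those lists had no called members between the 2 times. Of 30 RPE identity genes 0 were called and 25 had negative values (median log2 fold change -0.09), and Rpe65 itself had a value of -0.25 ± 0.08 (adjusted p = 0.348). Of 26 phagocytosis genes 0 were called (median 0.000124), and Mertk, the receptor that triggers engulfment, had 186, 207 and 206 CPM at 3 h, against 196, 168 and 213 CPM at 1 h (0.06 ± 0.08, adjusted p = 0.96). Of 48 autophagy machinery genes, 19 selective receptors, 52 hydrolases and 44 membrane proteins and V-ATPase subunits 0 were called, with medians of -0.02, -0.01, 0.02 and -0.01. Optn, a receptor for damaged mitochondria, had 117, 121 and 113 CPM at 3 h, against 114, 101 and 109.7 CPM at 1 h (0.11 ± 0.07, adjusted p = 0.829). Ctsd, the major aspartic protease of lysosomes, had 3092, 2899 and 2604 CPM at 3 h, against 3191, 2935 and 3223 CPM at 1 h (-0.12 ± 0.08, adjusted p = 0.836), with 34.4% of its exonic bases shared with a predicted gene. Tfeb, the master regulator of lysosomal genes, had 36.7, 35 and 25.9 CPM at 3 h, against 39.8, 33.9 and 35.4 CPM at 1 h (-0.16 ± 0.12, adjusted p = 0.906). Of 35 MiT/TFE and mTORC1 genes only Ddit4 fell. A p above the threshold does not show that levels were equal.

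Other lists gave no further calls. Cyclic AMP targets (1 of 22), hypoxia signals (1 of 28), cell cycle genes (1 of 24) and p53 targets (1 of 19) each fell through a gene already named, Per1, Ddit4 or Cdkn1a. Of 30 interferon response genes 25 had positive values and 0 were called, with a median of 0.18, and Oas2, an antiviral enzyme, averaged 3.68 ± 1.34 CPM at 3 h and 1.754 ± 0.323 CPM at 1 h (SD, n = 3 each; log2 fold change 1.07, adjusted p = 0.416). Of 24 heat shock genes 20 were negative and 0 called (median -0.10). Again 0 members were called among the lists of BMP, Wnt, retinoic acid, melanin, cholesterol, fatty acid oxidation, cold response, unfolded protein, NRF2, iron, transport, NF-kB, MYC, oxidative phosphorylation, mitochondrial or ribosomal genes.

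**Figure D5:**
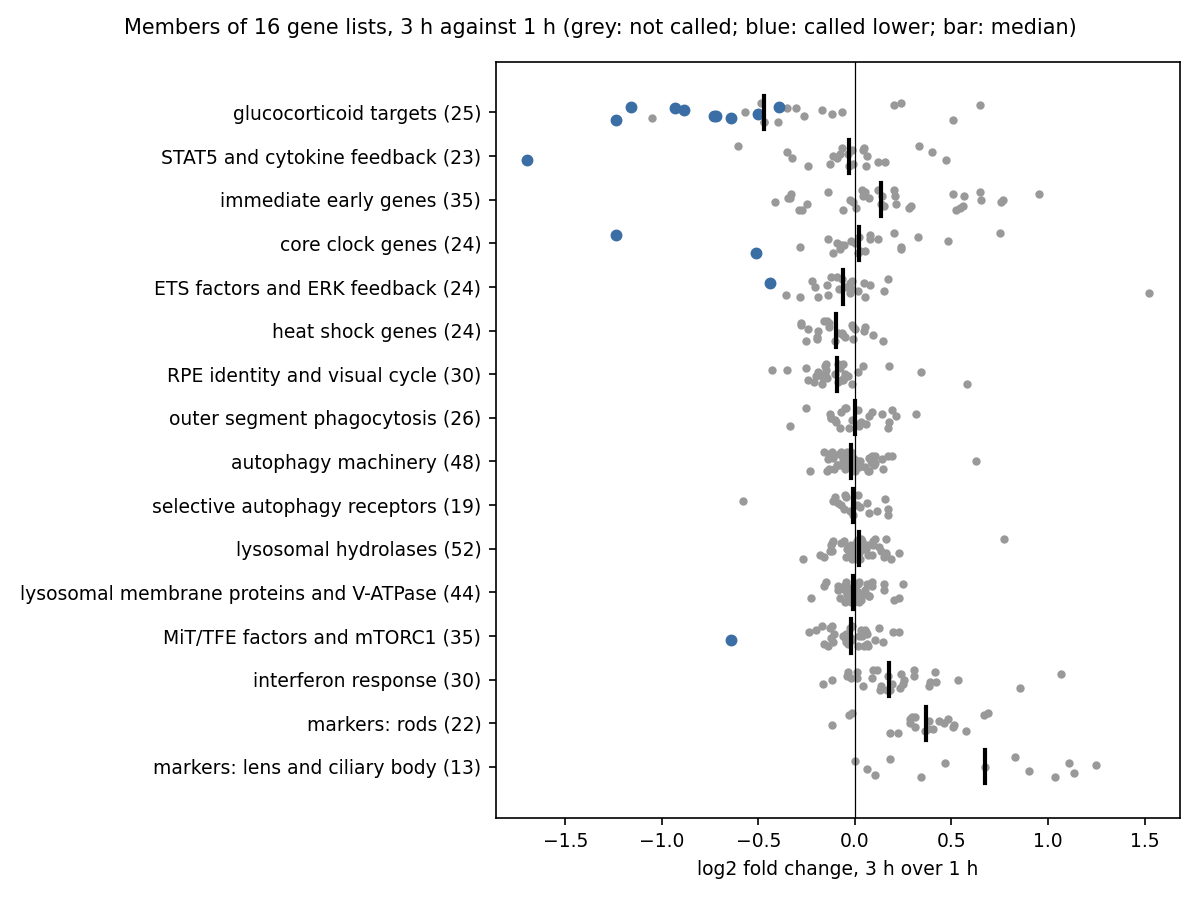
Log2 fold change of 3 h over 1 h for the tested members of 16 lists, 1 point per gene, with the number tested in parentheses and a bar at the median. Blue points were called lower and lie mainly in the row of glucocorticoid targets (median -0.47), and the rows of autophagy and lysosome genes have medians between -0.02 and 0.02.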

How the data were processed

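RNA from mouse RPE was sequenced at 8 times after light onset, with 3 mice at each. Per the labels' protocols, RNA was isolated with an RNAqueous-Micro kit and libraries were made with a NEBNext Ultra RNA kit, which does not mark strand. STAR, HTSeq and mm10 appear in the submitters' processing notes, but what each was used for, and in which version, is not given in the sources used here. Whole-number counts per gene were deposited for 24 libraries, 14073440 to 17492470 per library, which were not normalized. Columns were tied to samples by clock hour and mouse number. The labels give the replicates as separate mice.

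Genes were tested with edgeR 4.0.16 in R 4.3.3 (TMM scaling, filterByExpr with a minimum count of 10, robust glmQLFit, glmQLFTest) on 22 libraries, leaving out mouse 3 of 6 h and mouse 3 of 15 h. This kept 18388 of 54532 genes and 99.9% of the counts. A call is an adjusted p under 0.05 (Benjamini-Hochberg over all genes tested), and adjusted p-values come from this test unless another is named. The fit was tested on simulated data. Levels are CPM with TMM scaling, as computed here, and log2 fold changes carry standard errors.

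The replicate numbers are shared between the times. Deviations from the mean of each time correlated at 0.144, 0.434 and 0.308 between same-numbered mice 1, 2 and 3 of 3 h and 1 h (11998 genes above 5 CPM). Since each mean is that of the same 3 mice, the correlations constrain each other. Between mice of unlike number the correlations were -0.468 to 0.243, and mouse 1 of 3 h correlated more with mouse 3 of 1 h (0.243) than with mouse 1. The labels used here give the number as a replicate and not as a batch. A fit with the number as a block is given where it ends a call. The alternatives were other scalings and filters, other sets of libraries, DESeq2 1.42.0, limma-voom (limma 3.58.1), a rod marker covariate and leaving out each library.

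Named were, among called genes averaging at least 2 CPM with a symbol that is not a predicted gene, the 15 with the largest rise and the 15 with the largest fall, called members of lists other than marker lists, and 17 genes fixed by name. Some items taken by this rule are not reported here. The comparison, the lists and the names were chosen with earlier results of these data known. The 45 lists include 11 of cell type or sex markers. Overlap was checked in GENCODE vM21 (GRCm38) for the 63 genes called or named. Of these 23 share exonic bases with another gene, and for 7 the share exceeds 10%, among them Cish (11.5%), Cebpd (15%), Dbp (18%) and Ctsd (34.4%). Coordinates are those of the deposited table, which equal that release for 59 of the 63 genes.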

Additional observations from a re-analysis of the deposited data

How the results depend on the processing

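The 43 lower, 5 higher and 9 glucocorticoid target calls were 2, 0 and 1 with all 24 libraries, and 7, 1 and 3 in a fit on the 6 libraries alone. With light phase libraries only, 27 genes were lower and 3 higher. Without a filter on low counts 189 were lower, 251 higher and 14 of the targets lower, the 43 and 5 among them, over 32019 genes tested. DESeq2 called 71 lower and 34 higher, of which 42 and 5 are shared with edgeR. Of those calls 67.6% were lower with DESeq2 and 43% without a filter, against 89.6% in the result reported. Leaving out 1 of the 6 libraries gave 7 to 34 lower, 0 to 18 higher and 3 to 7 of the targets lower. The other settings (2 other scalings, a minimum count of 50, limma-voom, the replicate block and the rod covariate) gave 36 to 43 lower, 4 to 6 higher and 9 of the targets. With the replicate block 42 genes were lower and 4 higher; it ended the calls of Nuak2, Scube3, Thbs1, Syne3, Gja1 and Adcy1 and no other of the 48. Where a count moved, the cause was not tested. The median of the glucocorticoid targets ranged from -0.35 without mouse 3 of 1 h to -0.52 without mouse 1 of 1 h. The signs of the 48 genes, which were called on these same libraries, were the same in all 17 alternatives. The majority of calls turned to higher without a filter. Cish and Per1 were called in all 17 alternatives.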

Other observations

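C1rb, a complement serine protease gene and a paralog of C1ra, was called lower at 3 h and was chosen after its values were seen. Its raw counts were 2, 1 and 5 at 3 h, against 47, 48 and 56 at 1 h (log2 fold change -4.26 ± 0.78, adjusted p = 0.0133). Outside 1 h, mouse 1 of 15 h had 55 counts, and each of the other libraries had at most 5. C1ra had 771 to 861 counts at 3 h and 684 to 940 at 1 h. Reads of near-identical copies can be divided between them by the counting, and whether this happened here was not tested. The level of C1rb is therefore uncertain.

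Slc26a4, an anion exchanger, averaged 18.7 ± 8.63 CPM at 3 h and 4.71 ± 3.64 CPM at 1 h (SD, n = 3 each; log2 fold change 1.98, adjusted p = 0.715), and the bicarbonate transporter gene Slc4a4 averaged 159.7 ± 70.2 CPM at 3 h and 87.9 ± 22.8 CPM at 1 h (log2 fold change 0.86, adjusted p = 0.605). Neither was called.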
